A study of Mus musculus with 5 samples.

Results

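The genes described here are 41 neighbours on the proximal part of mouse chromosome 2, around Frmd4a and Celf2, followed in 5 clones of cardiac progenitor cells. They were chosen by their ratios in clone 11B against the other clones on these same arrays, so the values of clone 11B below are a description with no test. In the RefSeq gene table of assembly GRCm38.p6 the first of them is Nmt2 and the last is Mllt10, and Prkcq lies between them. Of the 41 members 37 had a probe set on the array, 82 probe sets of 34945 that carry 1 gene symbol, and 4 (Rpp38, Dclre1c, Cdnf and Optn) had none in the annotation used. The clones were named 11B, 1D, 20B, 30 and 42. Each was grown from Sca-1-selected cells of the left ventricle of adult mice aged 5 to 6 months, of a strain labelled C67BL/6, and all are labelled c-kit+ cardiac progenitor cells. The cells were expanded, ring-cloned and subcloned by dilution, with no treatment given in the labels, so each clone is a single cultured line. Total RNA of each clone was hybridised to 1 Affymetrix array, so there were no replicates and no difference could be tested; precision is limited by having so few arrays.

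The segment has no single function. Its genes include parts of the splicing, RNA decay and RNA modification machinery (Prpf18, Rbm17, Celf2, Upf2, Nsun6), chromatin and transcription proteins (Suv39h2, Gata3, Taf3, Mllt10), kinases and adaptors (Camk1d, Prkcq, Stam, Rsu1), metabolic enzymes (Phyh, Nudt5, Dhtkd1, Sephs1) and vimentin, the main intermediate filament of mesenchymal cells (Vim). Neighbouring genes are usually transcribed from promoters of their own, although some start back to back or overlap at their ends. In cultured mesenchymal cells Vim is among the abundant transcripts, whereas genes such as Gata3 and Itih2 are better known from lymphocytes and liver.

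The sequences just upstream of 4 members are shown because these genes lay among the farthest above the other clones in clone 11B and stand at 4 places along the segment. Each line gives the 250 bases before the outermost start site of the gene in the RefSeq promoter table, read 5′ to 3′ on the strand of the gene, at chr2:4017433-4017682 (plus strand) for Frmd4a, chr2:5895433-5895682 (minus) for Sec61a2, chr2:7396199-7396448 (minus) for Celf2 and chr2:13271416-13271665 (minus) for Rsu1, all in GRCm38.p6. Capitals mark GGGCGG, the core of the GC box, and TATAAA, the core of the TATA box, on either strand; the 2 motifs share no overlap here.
Frmd4a: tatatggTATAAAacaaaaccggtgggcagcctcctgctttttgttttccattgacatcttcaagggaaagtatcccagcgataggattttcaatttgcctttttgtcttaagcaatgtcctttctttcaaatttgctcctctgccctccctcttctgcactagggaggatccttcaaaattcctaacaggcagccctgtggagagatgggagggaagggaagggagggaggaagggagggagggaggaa
Sec61a2: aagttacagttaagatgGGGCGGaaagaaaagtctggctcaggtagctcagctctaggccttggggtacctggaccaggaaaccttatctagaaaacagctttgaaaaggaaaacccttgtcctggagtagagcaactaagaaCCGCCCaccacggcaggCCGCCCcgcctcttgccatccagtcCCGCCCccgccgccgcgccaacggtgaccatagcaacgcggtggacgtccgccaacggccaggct
Celf2: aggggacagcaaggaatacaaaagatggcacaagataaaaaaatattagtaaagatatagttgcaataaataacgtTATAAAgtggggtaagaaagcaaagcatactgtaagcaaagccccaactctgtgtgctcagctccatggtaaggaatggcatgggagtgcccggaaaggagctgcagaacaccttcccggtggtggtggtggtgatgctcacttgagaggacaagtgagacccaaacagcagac
Rsu1: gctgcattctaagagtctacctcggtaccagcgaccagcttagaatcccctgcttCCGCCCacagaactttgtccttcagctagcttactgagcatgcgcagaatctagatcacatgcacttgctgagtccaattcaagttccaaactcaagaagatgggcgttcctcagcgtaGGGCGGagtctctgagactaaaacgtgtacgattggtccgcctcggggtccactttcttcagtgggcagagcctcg

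The upstream sequences had no common make-up. The Frmd4a and Celf2 windows held no GGGCGG, few CG pairs (2 and 3) and 1 TATAAA each, at 243 and 174 bases before the start. Sec61a2 held 4 copies of GGGCGG and Rsu1 held 2. GC content was 47.2% for Frmd4a, 58.8% for Sec61a2, 45.6% for Celf2 and 52.8% for Rsu1. GGGCGG was found in 22 of the 39 members that the RefSeq promoters cover, each at its outermost start, against 32.7% of all 32851 upstream windows of the same length, and 3 held TATAAA, against 12.4%. It was present in 8 of the 13 members that lay at least 0.5 log2 units above the other clones in clone 11B and in 14 of the other 26 members, and TATAAA in 3 and 0 of them. Most of those 26, such as Rpp38, Gata3 and Usp6nl, had no measured probe set, so the split does not set high genes against level ones. These matches describe letters in these windows only. The table lists 4 start sites for Frmd4a and 5 for Celf2, and the arrays do not tell which was used.

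The deposited values are linear ratios. Judged from the values, the divisor was the median of that probe set across clones or, for dim probe sets, some floor, which keeps differences between clones and loses the expression level. Probe sets were called measured when their 5 ratios spanned more than 0.05 log2 units and either had a median of 1 or reached above 1 in any clone. By this rule 24 of the 37 members were measured, on 39 probe sets. Of these, 5 (Phyh, Camk1d, Kin, Prkcq and C1ql3) passed only through clone 11B, where a passing value had to differ, and 19 would also have passed on the other 4 clones. The other 13 members were flat or at the floor: Prpf18, Bend7, Ccdc3, Dhtkd1, Usp6nl, Gata3, Taf3, Itih2, Itih5, Sfmbt2, Pter, Trdmt1 and Nsun6. On their 21 probe sets clone 11B differed from the median of the others by at most 0.021 log2 units in size, and 10 of the 13 had ratios below 1 in every clone. A position at the floor does not show absence of the transcript.

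Clone 11B also stood apart in the array's RNA controls. These values come from the deposited ratios, so they compare clones and give no absolute 5′ to 3′ ratio or signal. The Actb 5′ ratio divided by the 3′ ratio was 0.597 in clone 11B, against 0.743 to 1.08 in the other clones. For Gapdh it was 0.924, against 1.00 to 1.16. The 18S ratios of clone 11B were 0.411 to 0.555, against 0.651 to 1.57. The part of RNA quality in the differences below was not tested. The 18 hybridization controls, which carry array error alone, had a standard deviation of 0.091 log2 units, and measured probe sets of the same gene differed in a way that corresponds to a standard deviation of 0.34 for a single probe set (6681 pairs over the array). Of the markers named in the labels' protocol, Kit was close to the other clones in clone 11B (0.00 log2 units), Pou5f1 was at the floor in every clone and Ly6a had no probe set in the annotation used. None of 4 endothelial markers was measured. Of 5 fibroblast or mesenchymal markers 4 were measured, with clone 11B at -0.26 to 1.02 log2 units from the other clones, and the highest of them was Vim, itself a member. The 3 smooth muscle markers were measured, with Tagln at 0.60, Acta2 at 0.16 and Myh11 at -0.01 in clone 11B, and Tagln was higher still in clone 30, at 1.83. Of 5 cardiomyocyte markers 3 were measured, at -0.01 to 0.04, and of 3 blood markers 1, Adgre1, at 0.00. The part of these cell type markers in the result was not tested.

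As a group, the measured members were higher in clone 11B. Their median difference, clone 11B minus the median of the other 4 clones, was 0.71 log2 units, with quartiles at 0.071 and 1.07, against a median of 0.00 and quartiles at -0.064 and 0.084 over all 9435 measured genes. Clone 11B exceeded that median in 21 of 24 members, against 47.7% of all measured genes. The excess was at least 0.5 log2 units, which is 1.41-fold, in 13 members (54.2%), against 4.46% of all genes, and at least 1 log2 unit, or 2-fold, in 8 (33.3%), against 0.678%. It was the highest of the 5 clones in 18 members, against 18.8% of genes, and the lowest in 1, Rbm17, against 17.2%. No member lay 0.5 log2 units or more below the other clones, against 4.71% of genes. These sizes depend on which probe sets enter. With every probe set of the 24 members averaged the median difference was 0.44 log2 units. In that setting 3 members lay at least 1 log2 unit higher, against 0.382% of genes. With no filter, over all 37 members with a probe set, the median was 0.055 and the count again 3, against 0.198%. Since the members were listed for this pattern, these counts show its size and support nothing further. Among the 19 members that passed the filter on the other clones alone, 11 lay at least 0.5 log2 units higher in clone 11B. Over all measured genes under the full filter the share was 4.46%, and it was not computed under the narrower one. The averages of these members still include probe sets that passed only through clone 11B, such as 1457434_s_at of Hacd1.

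**Figure D1:**
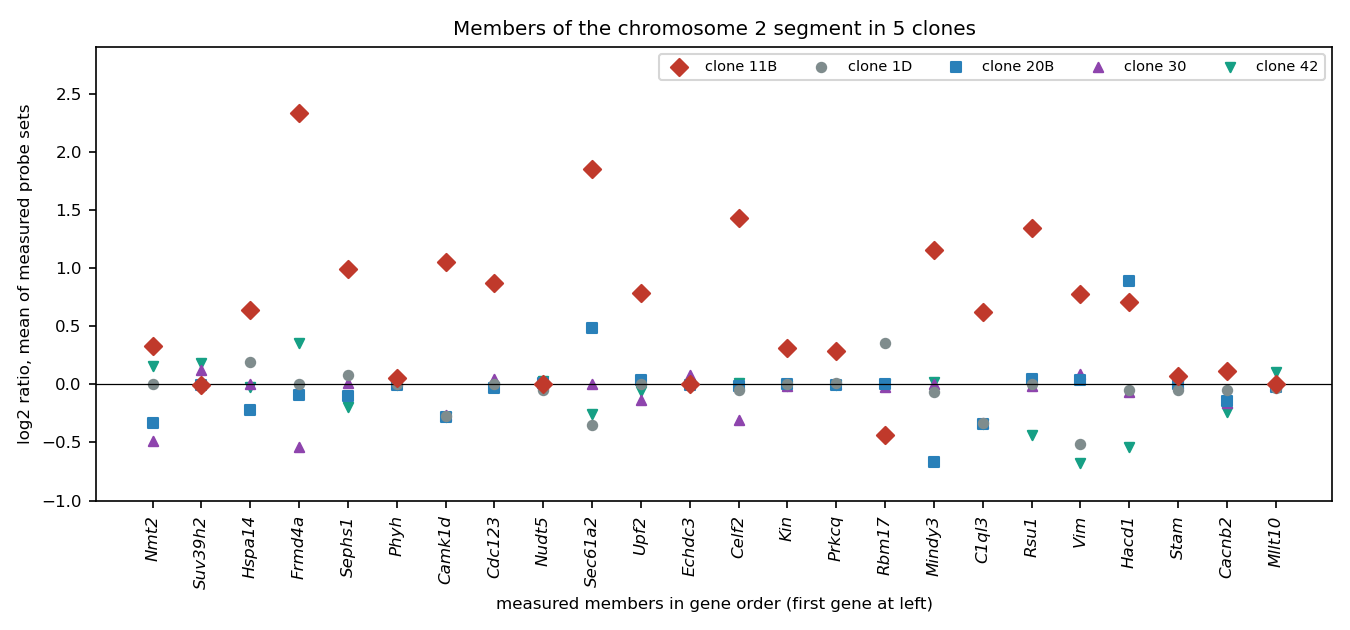
Log2 ratio (vertical axis, mean of the measured probe sets of a gene) of the 24 measured members in gene order (horizontal axis), with 1 point per clone; there are no error bars because each clone had 1 array. Clone 11B (red diamonds) is the highest point for 18 members, is topped by clone 20B for Hacd1, and is the lowest point for Rbm17.

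The other clones showed no such shift in these genes. The median difference of the same 24 members was -0.01 log2 units in clone 1D, -0.01 in clone 20B, 0.00 in clone 30 and -0.02 in clone 42. The number of members at least 0.5 log2 units above the rest was 0 in clones 1D, 30 and 42, against 5.57%, 6.19% and 6.38% of all genes, and 2 in clone 20B (Sec61a2 and Hacd1), against 4.30%. As clone 11B enters the median of the others here, a high value in it lowers the other clones' differences slightly. The range over the clones was at least 1 log2 unit in 9 of the 24 members, against 13.0% of all genes.

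**Figure D2:**
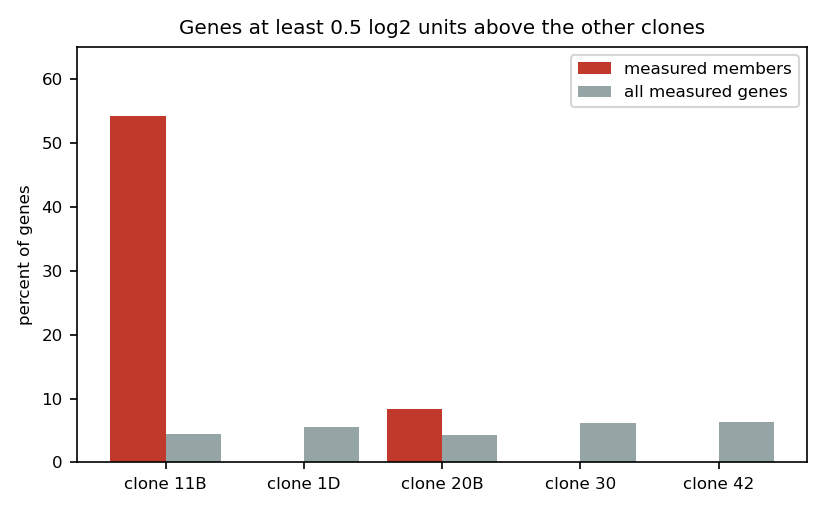
Percent of genes (vertical axis) whose log2 ratio exceeded the other 4 clones' median by 0.5 or more, for each clone (horizontal axis), among the 24 measured members (red) and all 9435 measured genes (grey). The share of members is 54.2% in clone 11B, 8.33% in clone 20B and 0 in clones 1D, 30 and 42, while the share of all genes lies between 4.30% and 6.38%.

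Of 8 listed signalling, trafficking and ubiquitin genes 6 were measured. At least 1 log2 unit higher in clone 11B lay 4, against 0.678% of all measured genes. Of these 4, Frmd4a has 1 probe set, and with the flat probe sets of the others averaged in, Rsu1 was at 0.68, Mindy3 at 0.60 and Camk1d at 0.45 log2 units. Frmd4a encodes a FERM domain scaffold of epithelial polarity. Its only probe set, 1434285_at, had a ratio of 5.039 in clone 11B, against 1.00 in clone 1D, 0.939 in 20B, 0.687 in 30 and 1.281 in 42. Clone 11B thus stood far above 4 clones that themselves spanned 0.90 log2 units, and its difference from their median was 2.38 log2 units (5.20-fold). Rsu1 encodes a leucine-rich repeat protein of focal adhesions that suppresses Ras-driven growth. On probe set 1419259_at it had a ratio of 2.539 in clone 11B, against 1.00 in clone 1D, 1.029 in 20B, 0.989 in 30 and 0.737 in 42, a difference of 1.35 log2 units. Only clone 42 left the common level of the other clones, downwards, and the second probe set of Rsu1, 1457220_at, was level at the floor.

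Camk1d encodes a calcium and calmodulin-dependent kinase. Its probe set 1452050_at had a ratio of 2.075 in clone 11B, against 0.829 in clone 1D, 0.823 in 20B, 0.833 in 30 and 0.823 in 42. The other clones sat together at the floor, spanning 0.017 log2 units, so the difference of 1.33 log2 units is of uncertain size, and the remaining 2 probe sets of Camk1d were flat. Mindy3 encodes a deubiquitinase that trims lysine-48-linked chains. On probe set 1418963_at it had a ratio of 2.228 in clone 11B, against 0.955 in clone 1D, 0.628 in 20B, 1.00 in 30 and 1.015 in 42. Clone 20B was the low one, and the difference of clone 11B from the median of the others was 1.19 log2 units. The other probe set of Mindy3, 1430460_at, was level at the floor. Prkcq, the protein kinase C theta of T cells, was at 1.221 in clone 11B, against 0.993 to 1.009 in the others, a difference of 0.29 log2 units, which is below the spread of a single probe set. Stam, an adaptor of endosomal sorting, differed by 0.08.

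RNA handling genes went both ways. Of 7 listed, 3 were measured. Celf2 encodes an RNA-binding regulator of splicing. On probe set 1451154_a_at it had a ratio of 5.378 in clone 11B, against 0.895 in clone 1D, 1.00 in 20B, 0.539 in 30 and 1.032 in 42. On probe set 1450069_a_at it had 3.429 in clone 11B, against 1.00 in clone 1D, 0.999 in 20B, 0.969 in 30 and 1.007 in 42. Both put clone 11B alone at the top, but the remaining measured probe set, 1444152_at, differed by only 0.09 log2 units and the other 4 of its 7 were flat or at the floor. The average over the 3 was 1.46 log2 units, and it was 0.09 without probe sets whose names end in _a_at, which can bind several transcripts of the gene.

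Upf2 encodes a core factor of nonsense-mediated mRNA decay. Probe set 1435030_at had a ratio of 2.966 in clone 11B, against 1.00 in clone 1D, 1.003 in 20B, 0.841 in 30 and 0.956 in 42, while probe set 1445777_at was level at 1.00 in clone 11B, against 0.961 to 1.045. The probe sets disagreed, and their average was 0.81 log2 units. Rbm17, a splicing factor of the spliceosome, was the member that lay lowest in clone 11B. Its ratio was 0.737 in clone 11B, against 1.279 in clone 1D, 1.00 in 20B, 0.986 in 30 and 1.001 in 42, a difference of -0.44 log2 units on 1 probe set.

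All 3 genes of protein making and folding were measured and lay at least 0.5 log2 units higher in clone 11B, against 4.46% of all genes. Sec61a2 encodes an alpha subunit of the channel through which proteins enter the endoplasmic reticulum. Probe set 1449944_a_at had a ratio of 4.444 in clone 11B, against 0.761 in clone 1D, 1.10 in 20B, 1.00 in 30 and 0.719 in 42. On probe set 1420644_a_at it had 2.924 in clone 11B, against 0.805 in clone 1D, 1.771 in 20B, 1.00 in 30 and 0.98 in 42. Clone 11B was highest on both, with clone 20B next, and the average difference was 1.98 log2 units. Cdc123 encodes an assembly factor of the translation initiation factor eIF2. Its 1 probe set had a ratio of 1.824 in clone 11B, against 1.00 in clone 1D, 0.977 in 20B, 1.033 in 30 and 0.983 in 42, a difference of 0.88 log2 units.

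Cdc123 and Nudt5 start on opposite strands 143 bases apart, with overlapping ends. Nudt5, a hydrolase of ADP-ribose, had a ratio of 1.00 in clone 11B, against 0.966 to 1.017 in the other clones, on its 1 measured probe set. Of this pair Cdc123 lay higher in clone 11B and Nudt5 was level. Hspa14, a ribosome-associated member of the Hsp70 family, had probe sets that disagreed. On 1448586_at its ratio was 2.407 in clone 11B, against 1.346 in clone 1D, 0.722 in 20B, 1.00 in 30 and 0.969 in 42. On 1417095_a_at clone 11B differed by 0.01, and the average was 0.65 log2 units.

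Among 8 genes of metabolism and lipid modification 6 were measured. At least 0.5 log2 units higher in clone 11B lay 2, against 4.46% of all measured genes. Sephs1, a paralogue of selenophosphate synthetase, had a ratio of 3.383 in clone 11B on probe set 1454792_s_at, against 1.00 in clone 1D, 0.797 in 20B, 1.253 in 30 and 0.733 in 42. On probe set 1433974_at it had 2.289 in clone 11B, against 1.414 in clone 1D, 1.00 in 20B, 0.818 in 30 and 0.989 in 42. The remaining measured probe set was level with a difference of 0.07, the average was 1.03 log2 units, and it was 0.63 without the first of these, whose name marks possible cross-hybridization.

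Hacd1, a dehydratase of very-long-chain fatty acid synthesis that is prominent in striated muscle, was the exception among the high members. Its probe set 1456315_a_at had a ratio of 1.931 in clone 11B, against 1.00 in clone 1D, 3.607 in 20B, 0.951 in 30 and 0.509 in 42, so clone 20B was above clone 11B. On 1457434_s_at clone 11B was highest, at 1.378, against 0.931 to 0.956. The other clones lay together at the floor there, so this probe set passed the filter only through clone 11B and its difference is of uncertain size. The average difference of clone 11B was 0.76 log2 units. Nmt2, an N-myristoyltransferase, lay just under the 0.5 line at 0.49. On all 4 of its probe sets clone 11B lay above the median of the others, by 0.37 to 0.58, but they differed in which clone was highest. On 1423581_at the ratio was 1.055 in clone 11B, against 1.00 in clone 1D, 0.662 in 20B, 0.477 in 30 and 1.424 in 42. Clone 42 was also above clone 11B on 1438740_at, at 1.13 against 1.094. On 1454919_at the ratio was 1.488 in clone 11B, against 0.99 to 1.001, and this probe set passed the filter only through clone 11B. Phyh, which starts the breakdown of phytanic acid, and Echdc3 differed by 0.06 and 0.00.

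Vim was one of 3 members on which every one of several measured probe sets lay at least 0.5 log2 units higher in clone 11B, with Sec61a2 and Hacd1. For Hacd1 this includes 1457434_s_at, which counted as measured only through its value in clone 11B. On 1438118_x_at the ratio of Vim was 2.109 in clone 11B, against 0.674 in clone 1D, 1.00 in 20B, 1.119 in 30 and 0.59 in 42. On 1456292_a_at it was 1.712 in clone 11B, against 0.661 in clone 1D, 1.00 in 20B, 1.071 in 30 and 0.582 in 42. On 1450641_at it was 1.401 in clone 11B, against 0.773 in clone 1D, 1.086 in 20B, 1.00 in 30 and 0.711 in 42. All 3 ordered the clones alike at the ends, with 11B at the top and 42 at the bottom, and their average difference for clone 11B was 1.02 log2 units with a standard deviation of 0.35 between probe sets. It was 0.85 without 1438118_x_at, whose name marks possible cross-hybridization, and 0.67 on 1450641_at alone. Each array measured the pooled RNA of a clone, so more cells with a transcript and more of it per cell cannot be told apart.

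C1ql3, a secreted C1q-like protein known from synapses, was the only measured member of 5 secreted proteins. Its probe set 1451620_at had a ratio of 1.537 in clone 11B, against 0.792 in clone 1D, 0.787 in 20B, 0.795 in 30 and 0.788 in 42. As for Camk1d, the other clones lay together at the floor, so the difference of 0.96 log2 units is of uncertain size, and it was 0.32 with its 2 unmeasured probe sets averaged in. Cacnb2, a beta subunit of voltage-gated calcium channels, differed by 0.27 and Kin, a DNA-binding protein of the DNA damage response, by 0.32. Both measured chromatin genes stayed within the spread of a single probe set: Suv39h2, a histone H3 lysine 9 methyltransferase, differed by -0.07 and Mllt10, a cofactor of DOT1L, by 0.01.

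Probe set by probe set, 22 of the 39 measured ones lay at least 0.5 log2 units higher in clone 11B and 14 at least 1 log2 unit higher, against 5.70% and 1.03% of the 13953 measured probe sets of the array, and none lay 0.5 log2 units lower. In 4 of the 22 the other clones lay within 0.04 log2 units of one another. These 4, from Nmt2, Camk1d, C1ql3 and Hacd1, therefore counted as measured only through their value in clone 11B. Of the 10 members with several measured probe sets, 3 had all of them at or above 0.5, 5 had some and 2 had none. Hacd1, among those 3, and Nmt2, among those 5, each hold such a probe set.

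**Figure D3:**
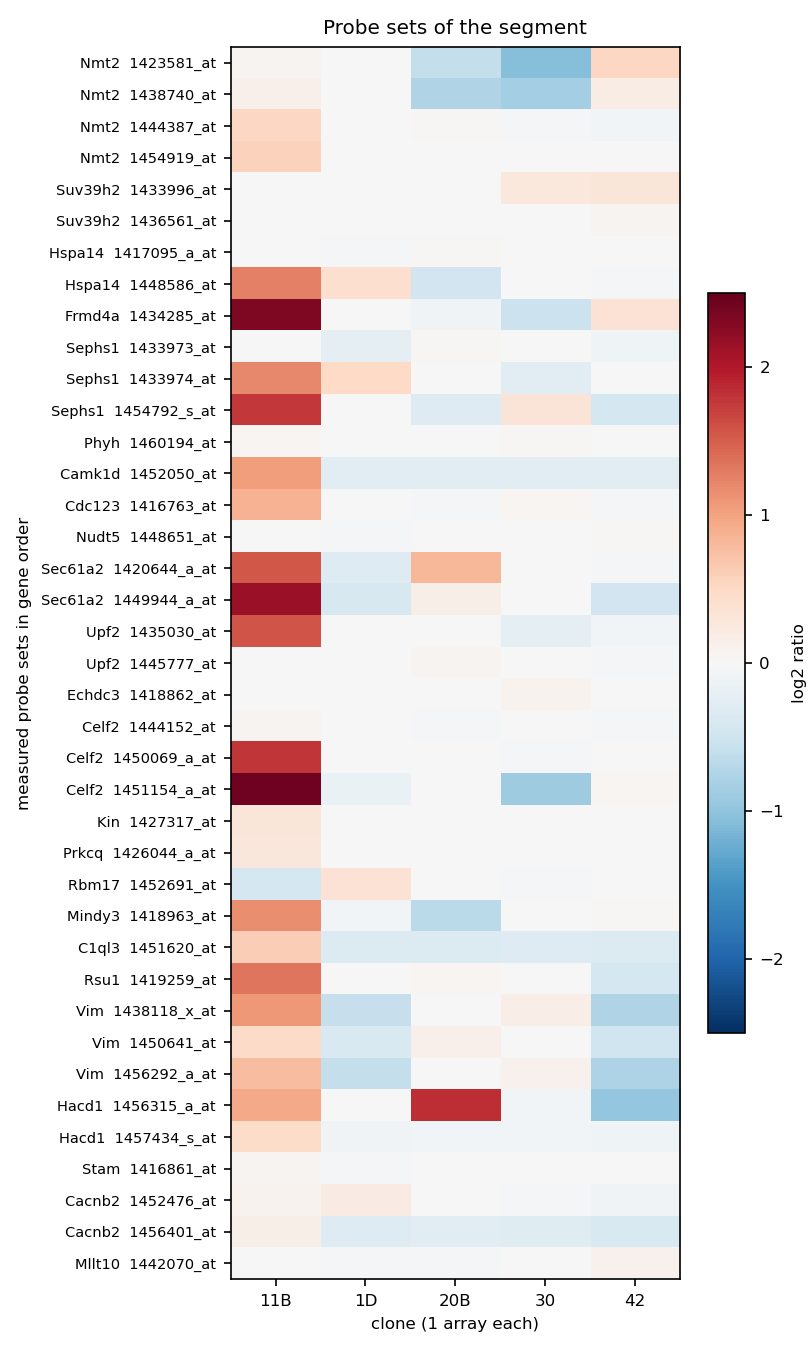
Log2 ratio (colour scale) of the 39 measured probe sets of the members, in gene order from top to bottom, in the 5 clones (columns, 1 array each). The left column, clone 11B, is red for 22 probe sets by at least 0.5 log2 units over the other clones, while probe sets of Hspa14, Sephs1, Upf2 and Celf2 lie pale beside red ones of the same gene.

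In gene order the high members fell in 2 stretches, whose limits were drawn after seeing the values. The share of all measured genes at least 0.5 log2 units higher in clone 11B was 4.46%. From Nmt2 to Celf2, 8 of 13 measured members lay at least 0.5 log2 units higher in clone 11B, with a median of 0.81. This stretch was not unbroken, as Nmt2, Suv39h2, Phyh, Nudt5 and Echdc3 lay at -0.07 to 0.49. From Gata3 to Rbm17 none of 3 did, at -0.44 to 0.32. From Mindy3 to Hacd1 the 5 measured members did, between 0.76 and 1.35, though C1ql3 among them counted as measured only through its value in clone 11B, and from Stam to Mllt10 none of 3 did, at 0.01 to 0.27.

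Genes that lie in the same stretch but were not listed were taken by position. They are what remained after the members had been listed by their ratios in clone 11B, so they are no neutral comparison. Those named here and beyond Mllt10 were picked after their values were seen. Of 34 such genes with a probe set 10 were measured. Their median difference in clone 11B was 0.01 log2 units. Above the median of the others lay 6 of 10, against 47.7% of all measured genes, and 1 lay at least 0.5 above it, against 4.46%. That gene was Atp5c1, the gamma subunit of the mitochondrial ATP synthase. Its ratio was 1.945 in clone 11B, against 1.00 in clone 1D, 1.10 in 20B, 0.949 in 30 and 0.799 in 42, a difference of 0.998 log2 units. This was on 1416058_s_at, whose name marks possible cross-hybridization, and the other probe set of the gene was at the floor. Atp5c1 stands between Taf3 and Kin, within the stretch where no measured member reached 0.5. Fam107b, between Hspa14 and Frmd4a, followed just below the line at 0.49, over probe sets that disagreed. It was at 0.89 on 1416892_s_at and 0.08 on 1448509_at, and its remaining probe set was flat. Fbh1, a DNA helicase next in the order after Il15ra, lay at -0.41.

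Beyond Mllt10 the next few genes lay higher in both clone 11B and clone 20B. Over the first 8 measured of the next 40 genes, from Dnajc1 to Thnsl1, a limit drawn after seeing the values, the median difference was 0.37 log2 units in clone 11B and 0.22 in clone 20B. Clone 11B was the highest clone in 4 of the 8, against 18.8% of all measured genes. Commd3, a component of endosomal cargo sorting, averaged 0.63 in clone 11B over probe sets that disagreed, with 1.25 on 1454642_a_at and 0.0051 on 1433539_at, where clone 20B was the high one. Dnajc1, a chaperone cofactor of the endoplasmic reticulum, was at 0.46, and Bmi1, a Polycomb protein of stem cell self-renewal, at 0.42. Arhgap21 was at 0.32 in clone 11B and 0.57 in clone 20B, and on Bmi1 probe set 1417493_at the ratio was 1.28 in clone 11B, against 1.565 in clone 20B. For Dnajc1 the ratio was 1.169 in clone 11B, against 0.581 in clone 1D, 1.20 in 20B, 1.00 in 30 and 0.723 in 42, so clone 20B was as high as clone 11B there. Over all 20 measured of the next 40 genes the median was 0.00 and 1 gene (5.00%) lay at least 0.5 higher. On the rest of chromosome 2 the median of 708 measured genes was 0.00, 33 (4.66%) lay at least 0.5 log2 units higher in clone 11B, and 2 lay at least 1 log2 unit higher.

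**Figure D4:**
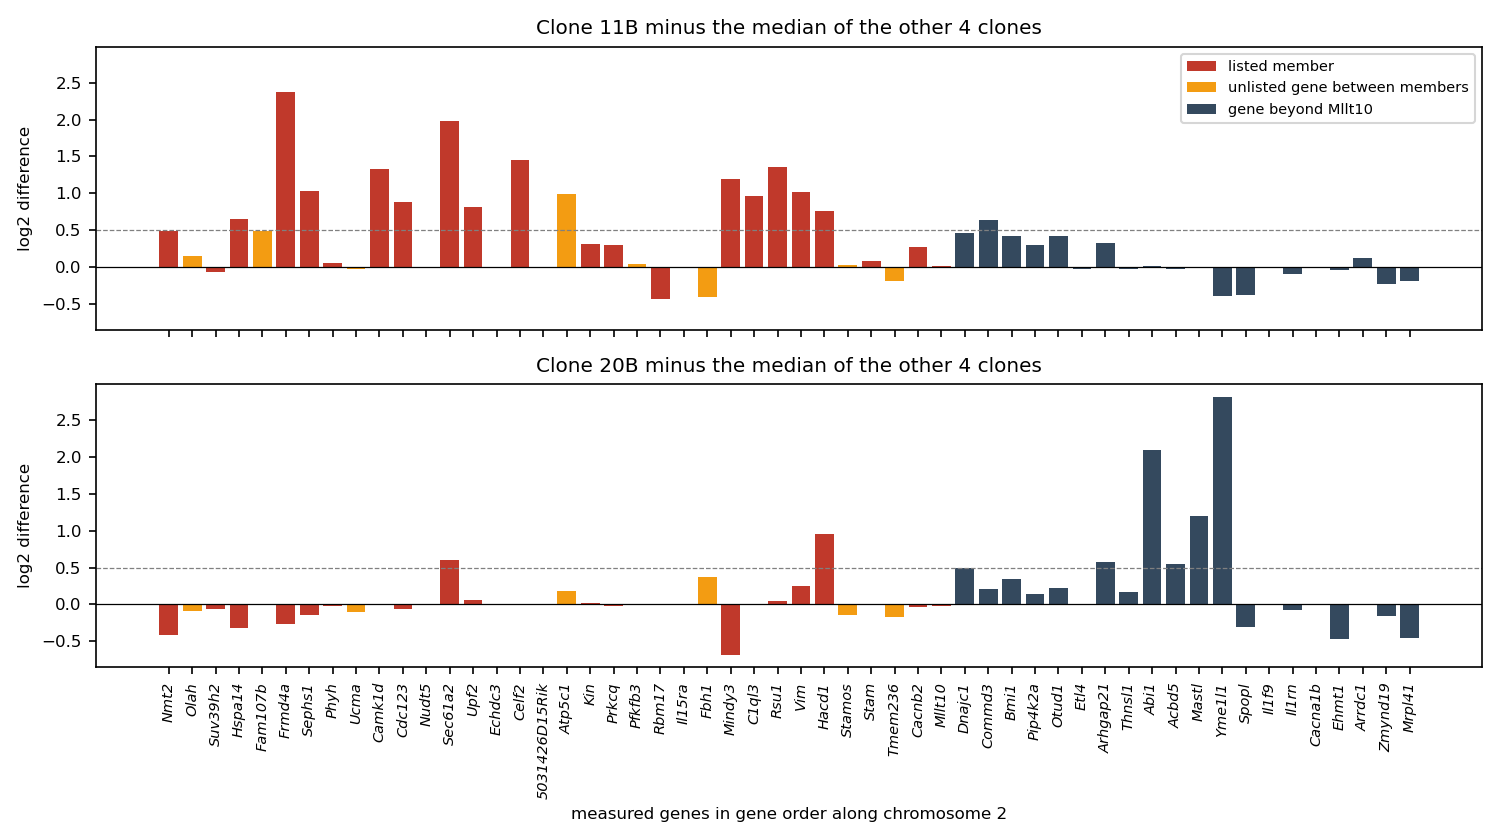
Log2 difference (vertical axes) of clone 11B (upper panel) and clone 20B (lower panel) from the median of the other 4 clones, for measured genes in gene order along chromosome 2 (horizontal axis, not to distance); the dashed line is 0.5. Members (red) reach 2.38 in clone 11B for Frmd4a, unlisted genes among them (orange) reach 0.998 for Atp5c1, and genes beyond Mllt10 (blue) are low in clone 11B after Arhgap21 while 4 from Abi1 to Yme1l1 are high in clone 20B.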

How the data were processed

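The deposited table, 1 column per clone, was taken as a ratio on a linear scale, from the values: the authors' values have a row median of exactly 1 for 18926 of 45101 probe sets and below 1 for 26175. Per the submitters' processing notes RMA and GCRMA were used, in roles not given; genome build and scanner files were not used here. From the ratios, log2 values were taken with no pseudocount, the measured probe sets of a gene were averaged, and each clone was set against the median of the other 4. Names came from the array annotation (probe sets with 1 symbol, 64 controls left out) and gene order from RefSeq, by gene ID. Floor here refers to probe sets whose row median lay below 1. The 95th percentile of 86 chemoreceptor probe sets, 1.00, was used in 1 alternative setting only, where lower values of such probe sets were set to it. With 1 array per clone no test was possible; values have no replicate error, and the fixed sizes of 0.5 and 1 log2 units describe differences. The members and lists were chosen with earlier results of these data known. Members were named if they differed by 0.5 log2 units in clone 11B or ranged over 1, with the 3 next below and any lower by 0.25; unlisted neighbours if they differed by 1 in any clone, other neighbours being picked after their values were seen. The calculation was tested on simulated data. Alternatives covered the combination, filtering and normalization of probe sets and the reference clones. Calculations used Python 3.11.15, pandas 2.3.3 and numpy 2.4.6.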

Additional observations from a re-analysis of the deposited data

How the results depend on the processing

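With 14 alternative settings, which gave 21 to 37 members, clone 11B stayed above the median of the other clones in 18 or more of them. The share over all genes was 40.9% to 48.9%. Between 10 and 14 members lay at least 0.5 log2 units higher, against 1.47% to 6.13% of all genes. The number at least 1 log2 unit higher was 8 as reported, against 0.678% of all genes. It was 3 when flat probe sets also entered each gene's average, against 0.382%. With no filter on low or flat probe sets it was again 3, against 0.198%. Without _x_at, _s_at and _a_at probe sets, a setting added after seeing the data, it was 5, against 0.758%. With no filter the median difference of all 37 members with a probe set was 0.055 log2 units and the median range over the clones 0.13, against 0.88 as reported; the range was 0.52 with every probe set averaged. Both of these settings add flat probe sets. Celf2 was 0.089 without _x_at, _s_at and _a_at probe sets, which leaves out its 2 high ones. Of 233 values of the 17 named members under these settings, 212 moved by less than 0.34 log2 units, 21 moved by more and none changed sign once called. Camk1d and C1ql3 fell below 0.5, at 0.45 and 0.32, with every probe set averaged, Hspa14 ran from 0.44 to 1.29, and Frmd4a stayed between 2.33 and 2.62. Leaving out each of clones 1D, 20B, 30 and 42 from the reference gave 6 to 8 members at 1 log2 unit, against 0.562% to 1.13% of all genes. No paired analysis was possible because each clone had 1 array. Ratios near the floor limit what can be seen.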

Other observations

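The genes beyond Mllt10 hold a stretch in which clone 20B, not clone 11B, was high. The 4 measured genes from Abi1 to Yme1l1 all lay at least 0.5 log2 units above the other clones in clone 20B. The share over all measured genes in that clone was 4.30%. The median of the 4 was 1.64 in clone 20B and -0.02 in clone 11B. The limits of this stretch were drawn after seeing the values. Yme1l1, which encodes a mitochondrial AAA protease, had a ratio of 6.789 in clone 20B, against 0.935 in clone 11B, 1.00 in 1D, 0.832 in 30 and 1.516 in 42. This was its only measured probe set, and the rest were at the floor. Abi1, a regulator of actin assembly, had 5.115, 4.037 and 3.224 on 3 probe sets in clone 20B, against 0.408 to 1.234 in the other clones. Mastl, a kinase of mitotic entry, had a ratio of 5.275 in clone 20B, against 0.988 to 1.005 in the others, on probe set 1423524_at, and was level on its other measured one. Acbd5, a peroxisomal tethering protein picked after its value was seen, was at 1.462 in clone 20B, against 0.983 to 1.004, and its other probe set was flat. Of the members, Hacd1 was also highest in clone 20B. Arhgap21, which stands before this stretch, was low in clone 1D at -1.07 log2 units from the other clones. Its probe sets disagreed, with a ratio in clone 1D of 0.266 on 1428369_s_at and 0.977 on 1428368_at. Spopl, the next measured gene after the stretch, was high in clone 42 at 1.16 on its only measured probe set.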
